A study of Mus musculus with 13 samples.

Results

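The circadian clock genes described here are *Arntl*, *Clock*, *Per1*, *Per2*, *Per3*, *Cry1*, *Ciart*, *Nr1d1*, *Dbp* and *Tef*. They were taken by symbol from the 47643 genes of the deposited count table, and all 10 were among the 17285 genes that passed the filter on low counts. RNA was sequenced from neurovasculature, the brain vessels with attached cells, of 13 male CD1 mice aged 8 to 10 weeks at 28 h after the first injection. The 4 sham-vehicle mice received neither agent, with PBS named in the study design in place of lipopolysaccharide. The 5 LPS-vehicle mice were injected with 3 mg/kg lipopolysaccharide (LPS) of *Salmonella enterica* typhimurium at 0, 6 and 24 h. The 4 LPS-CPD-4645 mice received the same LPS and, 30 min after each dose, 10 mg/kg of CPD-4645, an inhibitor of the endocannabinoid-degrading enzyme monoacylglycerol lipase. That delay is the one in the labels and methods, and the study's results text states a longer one. Per the study, CPD-4645 also partly inhibited the hydrolases ABHD6 and FAAH in brain. Each library came from a separate mouse, the brains were not perfused, and no group received CPD-4645 without LPS. The animals were kept on a light/dark cycle. The clock time at which each mouse was killed is not given in the sources used here, and its part in the values was not tested.

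The circadian clock is a feedback loop of transcription factors that runs in nearly every cell type, including those of vessel walls. BMAL1, encoded by *Arntl*, pairs with CLOCK, binds E-box sequences and activates the *Per* and *Cry* genes, *Nr1d1*, *Dbp*, *Tef* and *Ciart*. The PER and CRY proteins then repress BMAL1 and CLOCK, while REV-ERB alpha, encoded by *Nr1d1*, represses *Arntl*, so that the messages of the loop rise and fall at different hours of the day.

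Total counts per library ran from 7813559 to 55133373, and over the 22 pairs of replicates the spread between mice exceeded counting error (chi-square per gene of 9.85 to 61.5). Expression is given as CPM, a gene's count scaled by the TMM-adjusted total of its library and so comparable between mice of different depth. Changes are log2 fold changes with their standard error (SE) from edgeR's quasi-likelihood test, and a gene was called where the p, adjusted over all genes tested by the Benjamini-Hochberg method, was 0.05 or less. The isolated vessels carried other cell types. In sham-vehicle mice the 7 endothelial markers summed to 245 to 411 CPM, against 8220 to 9560 CPM for 6 neuronal markers and 4360 to 6280 CPM for 5 oligodendrocyte markers. No listed marker of these cell types was at 0 in every mouse. Such sums add genes of unlike abundance and do not measure the share of each cell type. By RT-qPCR the study found *Gfap*, *Pdgfrb* and *Pecam1* enriched in its vessel preparation, with *Syp* and *Aif1* scarce. In such bulk tissue, fewer cells of a type and less RNA per cell cannot be told apart.

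Compared with sham-vehicle mice, LPS-vehicle mice had 3 clock genes called higher, 2 called lower and 5 not called. *Per1*, *Per3* and *Tef* rose by 1.34- to 1.66-fold, and *Nr1d1* and *Dbp* fell by 1.2- and 1.28-fold. Over all genes tested, 11.1% were called higher and 8.86% lower in this comparison. When LPS-CPD-4645 were set against LPS-vehicle animals, 5 clock genes were higher and 1 was lower, where the shares over all genes were 14.1% and 16.4%. The rises were those of *Per1* (2.54-fold), *Ciart* (2.42-fold), *Cry1* (2.28-fold), *Arntl* (1.52-fold) and *Nr1d1* (1.38-fold), and *Per3* fell by 1.35-fold. Compared with sham-vehicle mice, LPS-CPD-4645 mice had 6 clock genes higher and 1 lower, against 19.5% and 19.3% of all genes. The median log2 fold change of the 10 genes was 0.03, 0.31 and 0.40 in the 3 comparisons, where that of all genes was -0.001, -0.02 and -0.01. The comparisons share mice, so each is given by its own values.

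**Figure D1:**
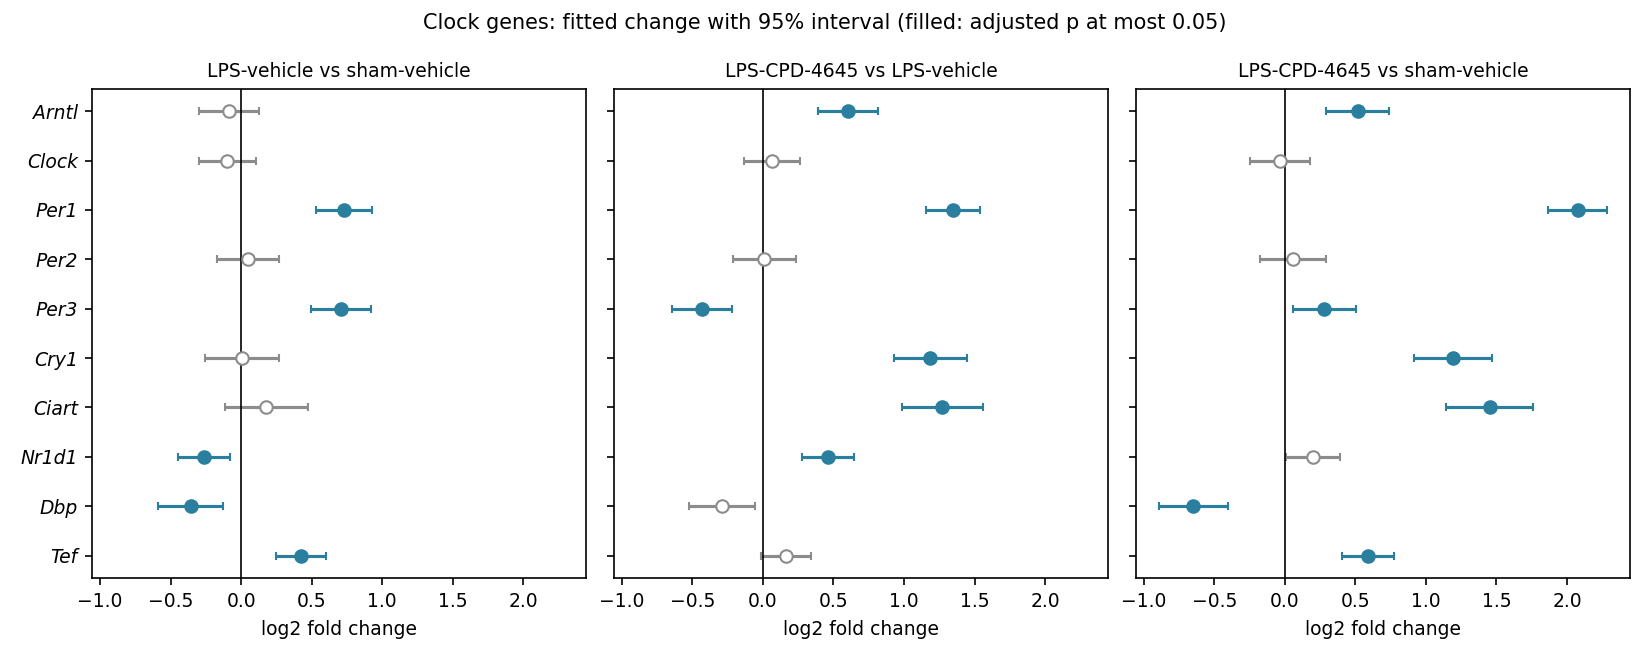
Fitted log2 fold change (horizontal axis) of each clock gene in the 3 comparisons, with 95% intervals, where filled symbols mark an adjusted p of at most 0.05. In LPS-CPD-4645 against LPS-vehicle mice the intervals of *Per1*, *Cry1*, *Ciart*, *Arntl* and *Nr1d1* lie above 0 and those of *Per3* and *Dbp* below it, of which *Dbp* (adjusted p = 0.055) is not filled.

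*Arntl* and *Clock* encode the activating pair of the loop. *Arntl* (ENSMUSG00000055116, chromosome 7 of GRCm38, 113207465 to 113314126, plus strand) measured 36.3, 33.4, 35.5 and 36.4 CPM in sham-vehicle mice 1 to 4 and 33.7, 28.9, 32.1, 37.3 and 34.7 CPM in LPS-vehicle mice 1 to 5. In LPS-CPD-4645 mice 1 to 4 it measured 50.4, 60.7, 43.1 and 48.3 CPM. All 4 mice given CPD-4645 were above the other 9, whose groups overlapped. *Arntl* rose by 0.60 on the log2 scale (SE 0.10, edgeR adjusted p = 0.00028) against LPS-vehicle mice and by 0.52 (SE 0.11, adjusted p = 9e-04) against sham-vehicle mice. LPS against sham-vehicle gave -0.09 (SE 0.10, adjusted p = 0.61). *Clock* (ENSMUSG00000029238, chromosome 5, 76209868 to 76304792, minus strand) measured 72.5 ± 7.08 CPM (SD, n = 4) in sham-vehicle, 67.8 ± 7.37 CPM (n = 5) in LPS-vehicle and 70.9 ± 6.32 CPM (n = 4) in LPS-CPD-4645 mice. Its 3 groups overlapped, at 66.6 to 81.9, 57.8 to 78.0 and 61.6 to 75.5 CPM. The 95% interval of its log2 change under CPD-4645 against LPS-vehicle mice ran from -0.14 to 0.27 (adjusted p = 0.65), and after LPS from -0.30 to 0.10 (adjusted p = 0.53).

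**Figure D2:**
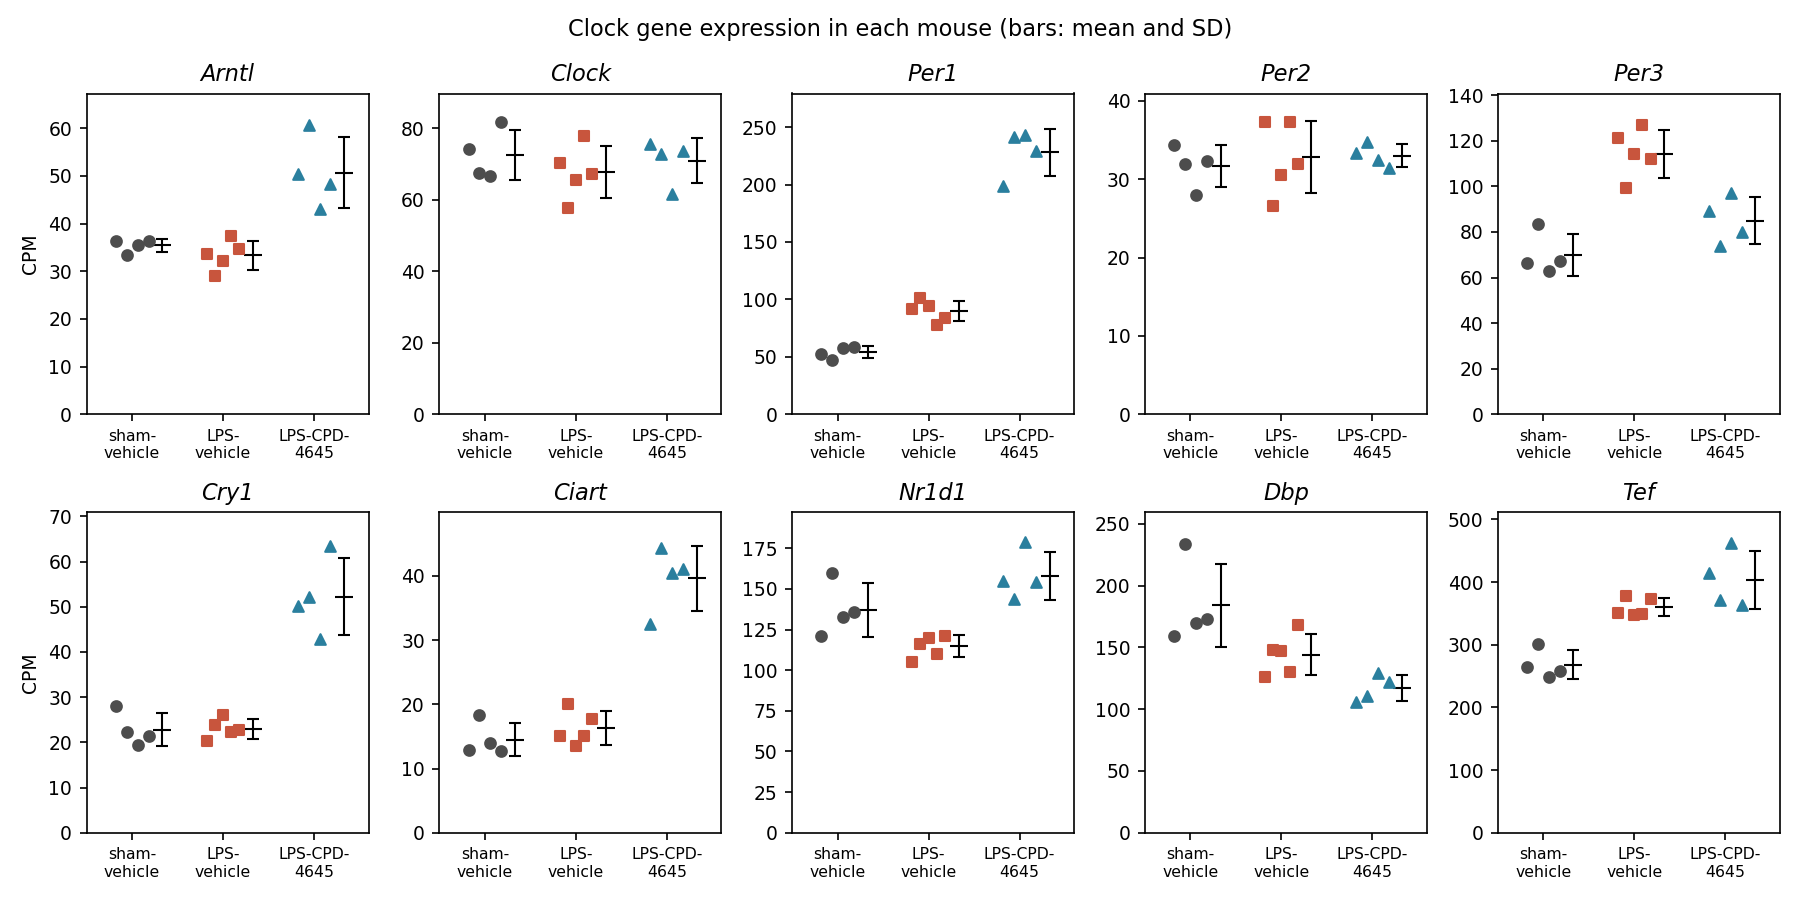
Expression in CPM (vertical axes, from 0) of the 10 clock genes in each mouse, with the mean and SD of each group beside the points. For *Per1* the 4 LPS-CPD-4645 mice sit between 199 and 243 CPM, above the LPS-vehicle mice at 78.0 to 101 CPM and the sham-vehicle mice at 47.3 to 58.8 CPM.

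*Per1*, *Per2* and *Per3* encode the PERIOD proteins of the repressing arm, of which PER1 and PER2 are the main ones. *Per1* (ENSMUSG00000020893, chromosome 11, 69095217 to 69109960, plus strand) measured 52.6, 47.3, 57.9 and 58.8 CPM in sham-vehicle mice. It measured 91.7, 101, 93.9, 78.0 and 84.2 CPM in LPS-vehicle mice and 199, 241, 243 and 229 CPM in LPS-CPD-4645 mice. The 3 groups were ordered with no overlap. *Per1* rose by 0.73 (SE 0.09, adjusted p = 1.8e-05) after LPS and by a further 1.35 (SE 0.09, adjusted p = 1.4e-07) with CPD-4645. The latter p was the 2nd smallest of the genes tested. Against sham-vehicle mice, LPS-CPD-4645 mice were 2.08 higher (SE 0.10, adjusted p = 3.2e-10), which is 4.21-fold.

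*Per2* was not called in the 3 comparisons. It (ENSMUSG00000055866, chromosome 1, 91415982 to 91459324, minus strand) measured 34.4, 31.9, 28.0 and 32.3 CPM in sham-vehicle mice, and 37.3, 26.6, 30.6, 37.3 and 32.0 CPM in LPS-vehicle mice. In LPS-CPD-4645 mice it measured 33.4, 34.8, 32.4 and 31.4 CPM. The 3 groups overlapped and their means, 31.7 ± 2.70 (SD, n = 4), 32.8 ± 4.57 (n = 5) and 33 ± 1.45 CPM (n = 4), lay within 1 SD of each other. The 95% interval of the log2 change ran from -0.17 to 0.27 after LPS (adjusted p = 0.79) and from -0.21 to 0.23 under CPD-4645 against LPS-vehicle mice (adjusted p = 0.96), below the lower bound of 1.15 for *Per1* in the latter comparison.

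*Per3* (ENSMUSG00000028957, chromosome 4, 151003652 to 151044665, minus strand) rose after LPS and fell under CPD-4645. It measured 66.3, 83.5, 63.0 and 67.2 CPM in sham-vehicle mice, 121, 99.2, 114, 127 and 112 CPM in LPS-vehicle mice and 89.2, 73.9, 97.1 and 79.8 CPM in LPS-CPD-4645 mice. Every LPS-vehicle mouse was above every mouse of the other groups, which overlapped with each other. *Per3* rose by 0.71 (SE 0.10, adjusted p = 6.4e-05) after LPS and fell by 0.43 (SE 0.10, adjusted p = 0.004) with CPD-4645. The level under CPD-4645 was 0.28 above sham-vehicle (SE 0.11, adjusted p = 0.046). That call was lost in 7 of the 13 fits that left out 1 mouse, with an adjusted p of 0.14 at the largest without LPS-CPD-4645 mouse 3. The other mice were LPS-CPD-4645 mouse 1, sham-vehicle mice 1, 3 and 4, and LPS-vehicle mice 1 and 5.

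*Cry1* encodes cryptochrome 1, the partner of the PER proteins, and *Ciart* encodes CHRONO, a further repressor of BMAL1 and CLOCK. *Cry1* (ENSMUSG00000020038, chromosome 10, 85131700 to 85185064, minus strand) measured 28.0, 22.2, 19.5 and 21.4 CPM in sham-vehicle mice and 20.2, 23.8, 26.1, 22.2 and 22.8 CPM in LPS-vehicle mice. In LPS-CPD-4645 mice it measured 50.2, 52.1, 42.9 and 63.5 CPM, and the lowest of these exceeded all 9 other mice. The log2 change of *Cry1* was 0.01 after LPS (SE 0.13, adjusted p = 0.98), and the gene rose by 1.19 with CPD-4645 against LPS-vehicle mice (SE 0.12, adjusted p = 4.9e-06) and by 1.19 against sham-vehicle mice (SE 0.13, adjusted p = 2.1e-06). *Ciart* (ENSMUSG00000038550, chromosome 3, 95878503 to 95882251, minus strand) measured 12.9, 18.3, 13.9 and 12.8 CPM in sham-vehicle mice and 15.1, 20.1, 13.5, 15 and 17.7 CPM in LPS-vehicle mice. With CPD-4645 it measured 32.5, 44.3, 40.4 and 41.0 CPM, again above all other mice. *Ciart* rose by 1.27 against LPS-vehicle mice (SE 0.14, adjusted p = 6.9e-06) and by 1.45 against sham-vehicle mice (SE 0.15, adjusted p = 9.1e-07), while LPS against sham-vehicle gave 0.18 (SE 0.14, adjusted p = 0.42). *Per1*, *Cry1* and *Ciart* were the 3 clock genes called at 2-fold or more under CPD-4645, against either other group. Over all genes, 1.7% were higher and 4.19% lower at that size against LPS-vehicle mice, and 6.11% and 4.98% against sham-vehicle mice. After LPS the largest clock gene change was the 1.66-fold rise of *Per1*, below that size, and 4.68% of all genes were higher and 0.995% lower at that size.

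*Nr1d1* (ENSMUSG00000020889, chromosome 11, 98767932 to 98775333, minus strand) encodes the repressor REV-ERB alpha. It measured 121, 160, 133 and 136 CPM in sham-vehicle mice, 105, 116, 120, 110 and 121 CPM in LPS-vehicle mice and 155, 144, 179 and 154 CPM in LPS-CPD-4645 mice. The LPS-vehicle group was below both others, although by less than 1 CPM from the lowest sham-vehicle mouse. *Nr1d1* fell by 0.26 after LPS (SE 0.09, adjusted p = 0.041) and rose by 0.46 with CPD-4645 (SE 0.09, adjusted p = 0.00077). The fall after LPS was not called in 7 of the 13 fits that left out 1 mouse, those without sham-vehicle mouse 2, 3 or 4, LPS-vehicle mouse 1, 2 or 4, or LPS-CPD-4645 mouse 1. Without sham-vehicle mouse 2, the highest of its group, it was -0.18 (adjusted p = 0.16). LPS-CPD-4645 against sham-vehicle gave 0.20 (SE 0.09, adjusted p = 0.093), and 0.29 without that same mouse (adjusted p = 0.016).

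*Dbp* and *Tef* encode PAR bZIP transcription factors, which carry the rhythm from E-box genes to genes with D-boxes. After LPS, *Dbp* fell and *Tef* rose. *Dbp* (ENSMUSG00000059824, chromosome 7, 45705088 to 45710203, plus strand) measured 159, 234, 170 and 173 CPM in sham-vehicle mice. It measured 126, 148, 147, 130 and 168 CPM in LPS-vehicle mice and 106, 111, 129 and 122 CPM in LPS-CPD-4645 mice. All LPS-CPD-4645 mice were below all sham-vehicle mice, and the LPS-vehicle mice overlapped with both groups. *Dbp* fell by 0.36 after LPS (SE 0.11, adjusted p = 0.029) and by 0.65 in LPS-CPD-4645 against sham-vehicle mice (SE 0.12, adjusted p = 3e-04). The first call was lost without sham-vehicle mouse 2 (-0.22, adjusted p = 0.13), LPS-vehicle mouse 1 (-0.31, adjusted p = 0.076) or LPS-vehicle mouse 4 (-0.32, adjusted p = 0.066). LPS-CPD-4645 against LPS-vehicle gave -0.29 (SE 0.11, adjusted p = 0.055), close to the threshold, with an adjusted p of 0.042 to 0.048 by DESeq2, with either other filter on low counts, or in a fit of the compared groups alone. It was 0.06 by limma-voom, 0.063 with DESeq2 size factors in edgeR, 0.094 with the replicate block and 0.18 without the 2 shallowest libraries, and leaving out each mouse gave 0.023 to 0.15, below the threshold without sham-vehicle mouse 2 or LPS-vehicle mouse 1 or 4. *Tef* (ENSMUSG00000022389, chromosome 15, 81802421 to 81826863, plus strand) measured 265, 301, 248 and 258 CPM in sham-vehicle mice and 351, 377, 347, 349 and 373 CPM in LPS-vehicle mice. In LPS-CPD-4645 mice it measured 414, 371, 463 and 363 CPM. Both LPS groups were above sham-vehicle mice and overlapped with each other. *Tef* rose by 0.43 after LPS (SE 0.08, adjusted p = 0.0014) and by 0.59 in LPS-CPD-4645 against sham-vehicle mice (SE 0.09, adjusted p = 5.1e-05), and LPS-CPD-4645 against LPS-vehicle gave 0.16 (SE 0.08, adjusted p = 0.15).

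Groups without overlap were counted beside these tests. After LPS, 3 clock genes lay wholly above and 1 wholly below sham-vehicle mice, where 9.68% and 8.44% of all genes did. Under CPD-4645, 5 lay above and 1 below LPS-vehicle mice, against 11.1% and 12% of all genes, and 5 lay above and 1 below sham-vehicle mice, against 18.7% and 18.8%.

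Within a mouse, the balance of the loop's messages can be read as the difference in log2 CPM of a pair of genes. *Dbp* minus *Arntl* was 2.13 to 2.80 in sham-vehicle, 1.80 to 2.36 in LPS-vehicle and 0.87 to 1.58 in LPS-CPD-4645 mice, so that the last group did not overlap with the others. *Tef* minus *Dbp* was 0.36 to 0.74 in sham-vehicle, 1.15 to 1.48 in LPS-vehicle and 1.57 to 1.96 in LPS-CPD-4645 mice, with 3 separate ranges. *Cry1* minus *Per3* was -1.91 to -1.24, -2.58 to -2.05 and -1.18 to -0.33 in the same order. LPS-vehicle mice were lowest and LPS-CPD-4645 mice highest in this pair. These pairs were chosen with the values known and carry no test.

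**Figure D3:**
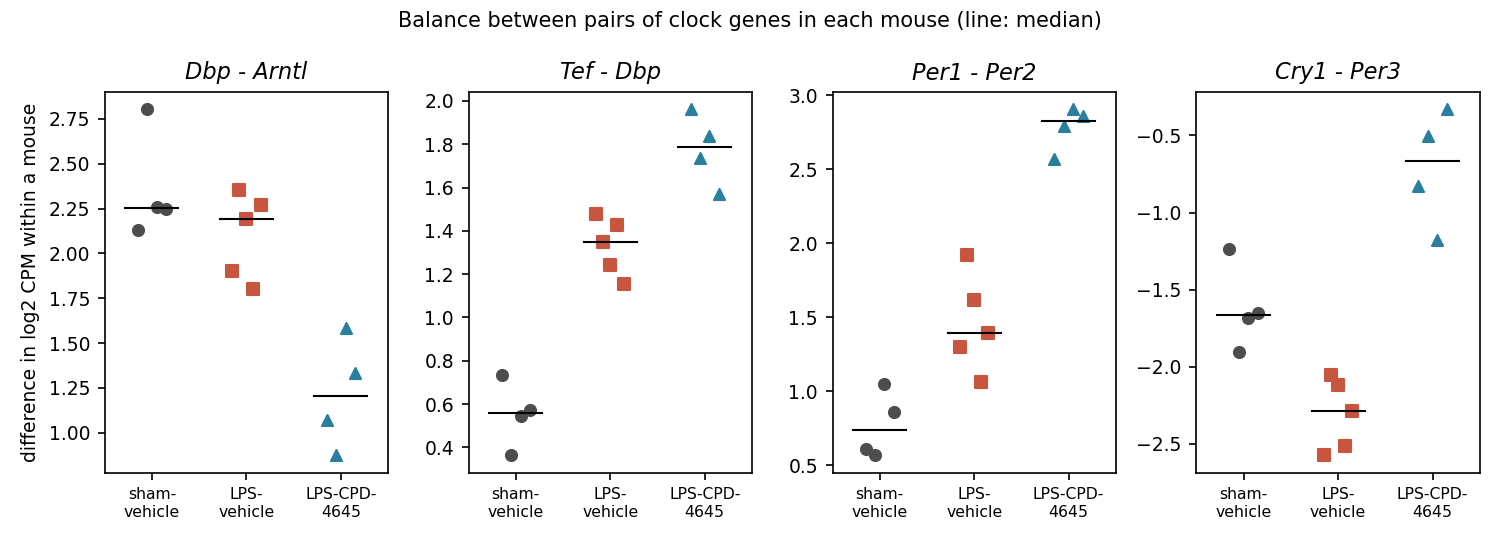
Difference in log2 CPM between a pair of clock genes within each mouse (vertical axes), with the group median as a line. *Tef* minus *Dbp* is lowest in sham-vehicle mice (0.36 to 0.74) and highest in LPS-CPD-4645 mice (1.57 to 1.96), and *Per1* minus *Per2* is 0.57 to 1.05 in sham-vehicle and 2.57 to 2.91 in LPS-CPD-4645 mice.

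Levels were compared between genes per kb of exon, the union of the exons of all GENCODE M21 isoforms. The counts were made on GENCODE M9 basic, so these lengths may differ from the exons counted, and the order is approximate. In sham-vehicle mice the order was *Dbp* at 61.5 ± 11.3 CPM per kb (SD, n = 4), *Nr1d1* at 44.7 ± 5.35, *Tef* at 34.1 ± 2.91 and *Per1* at 9.62 ± 0.945. The other 6 genes lay between 4.71 (*Arntl*) and 7.29 CPM per kb (*Per3*). Neighbours in this order from *Per1* down to *Clock* overlapped between mice. In LPS-CPD-4645 mice *Nr1d1* (51.3 ± 4.76) and *Tef* (51.2 ± 5.84) were highest and overlapped, followed by *Per1* (40.5 ± 3.64) and *Dbp* (39.2 ± 3.49), which also overlapped. *Ciart* and *Cry1* followed at 17.5 ± 2.22 and 15.6 ± 2.55 CPM per kb. *Clock*, at 5.17 ± 0.460, had the lowest mean and overlapped with *Per2*. Of the 10 genes, *Per1* stood 4th in sham-vehicle mice and 3rd in LPS-CPD-4645 mice, beside *Dbp*.

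Promoter sequence was examined for the motifs through which the loop is known to act. RefSeq windows on GRCm38.p6, from 250 bases before to 50 bases after an annotated start site, were matched by symbol for 9 of the 10 genes, with 14 windows in all. No window in the set used here carried the symbol *Per2*. Both strands were searched for the E-box CACGTG, the variant E-box CACGTT, the D-boxes TTATGTAA and TTACGTAA, the core TAGGTCA of the element that REV-ERB and ROR proteins bind, and the cyclic AMP element TGACGTCA. None of these letter strings holds another. The E-box was found for 4 of the 9 genes, *Per1*, *Cry1*, *Ciart* and *Tef*, where 8.09% of 27025 genes had it in at least 1 window, and it was in 7.15% of the 32851 windows. *Ciart* had 3 E-boxes, which 29 windows (0.0883%) matched with 3 or more, and *Per3* had 2 copies of TTATGTAA, as 7 windows (0.0213%) did with 2 or more. The windows of *Clock* and *Dbp* held none of these strings, and no clock gene's window held TTACGTAA or TGACGTCA. A match describes the letters of these windows and shows no binding.

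The 250 bases before the start site of *Ciart* (chr3:95882229-95882478, minus strand) and *Cry1* (chr10:85185055-85185304, minus strand) are printed because both genes rose more than 2-fold with CPD-4645, and those of *Per3* (chr4:151044666-151044915, minus strand) because that gene fell. All run 5′ to 3′ along the gene. Capitals mark the E-boxes of *Ciart*, the variant E-box (read on the other strand) and the E-box of *Cry1*, and the D-boxes of *Per3*.
Ciart: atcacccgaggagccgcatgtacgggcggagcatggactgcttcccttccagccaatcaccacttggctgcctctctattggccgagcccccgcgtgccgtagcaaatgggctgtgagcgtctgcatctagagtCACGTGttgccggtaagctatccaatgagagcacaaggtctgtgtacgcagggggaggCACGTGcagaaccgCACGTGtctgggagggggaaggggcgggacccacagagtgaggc
Cry1: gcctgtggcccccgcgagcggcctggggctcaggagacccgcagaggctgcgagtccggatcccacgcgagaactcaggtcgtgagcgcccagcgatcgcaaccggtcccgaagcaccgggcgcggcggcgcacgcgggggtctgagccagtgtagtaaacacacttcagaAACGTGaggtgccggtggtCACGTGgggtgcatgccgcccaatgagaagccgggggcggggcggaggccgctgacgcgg
Per3: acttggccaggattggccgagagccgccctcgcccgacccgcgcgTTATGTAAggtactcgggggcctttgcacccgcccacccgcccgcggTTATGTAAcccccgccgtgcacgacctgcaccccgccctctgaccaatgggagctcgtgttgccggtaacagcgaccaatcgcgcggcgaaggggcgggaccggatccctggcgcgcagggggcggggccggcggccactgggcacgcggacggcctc
In *Ciart* the E-boxes begin 116, 58 and 44 bases before the start site. In *Cry1* the variant E-box begins 79 and the E-box 60 bases before it, and in *Per3* the D-boxes begin 205 and 158 bases before it.

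Shorter stretches are shown for *Per1* (chr11:69098741-69098830), the largest rise of the 10, for both annotated start sites of *Tef* (chr15:81802519-81802578 and chr15:81811249-81811308), which rose after LPS, and for *Arntl* (chr7:113207530-113207559). All are on the plus strand. Capitals mark the E-box of *Per1* and *Tef* and the TAGGTCA core of *Arntl*.
Per1: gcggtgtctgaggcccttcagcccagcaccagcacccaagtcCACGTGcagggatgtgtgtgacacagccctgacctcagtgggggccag
Tef, first start site: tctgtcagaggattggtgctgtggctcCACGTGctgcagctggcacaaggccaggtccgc
Tef, second start site: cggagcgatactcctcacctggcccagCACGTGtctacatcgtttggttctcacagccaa
Arntl: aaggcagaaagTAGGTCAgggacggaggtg
The *Per1* E-box begins 166 bases before the start site, the *Tef* E-boxes 127 and 138 bases before theirs, and the *Arntl* core begins at base 31 after its start site. *Nr1d1* held 1 variant E-box, 28 bases before the start site. The shares of all windows were 4.68% for the variant E-box, 0.938% for TTATGTAA, 2.61% for TAGGTCA and 1.79% for TGACGTCA.

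**Figure D4:**
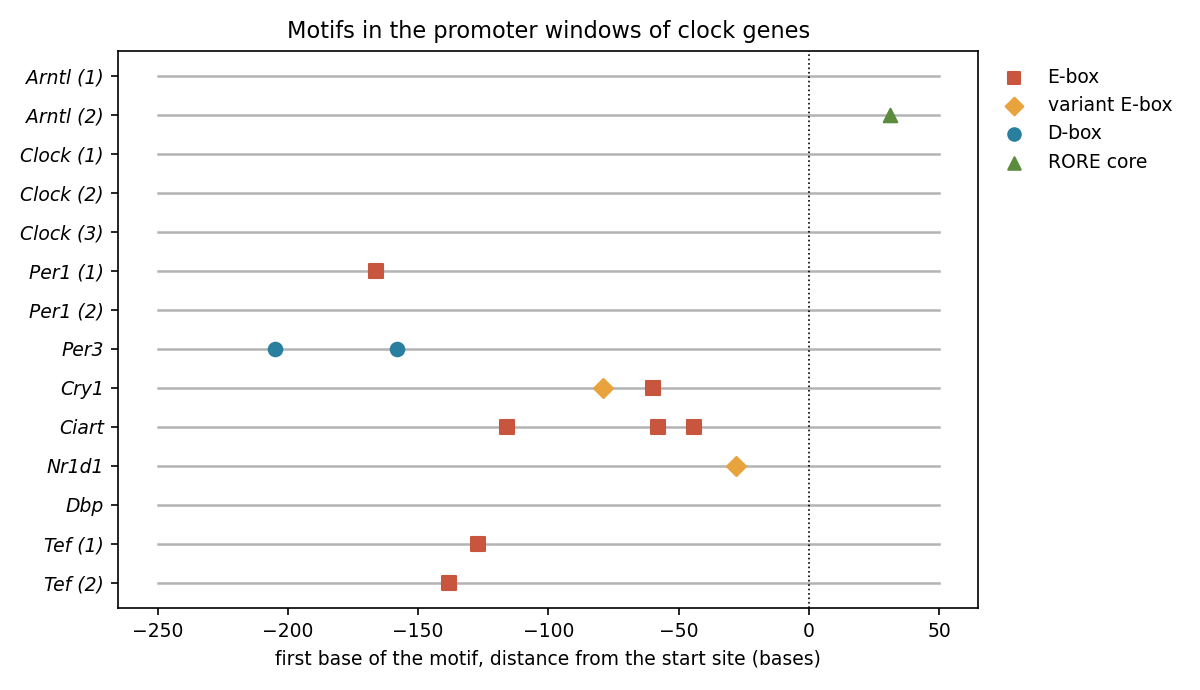
Position of each motif (symbols) in the 14 promoter windows (grey lines) of 9 clock genes, as the distance in bases of its first base from the start site; a number in brackets names a window where a gene has several. The 3 E-boxes of *Ciart* lie at -116, -58 and -44 and the D-boxes of *Per3* at -205 and -158.

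The other genes of the clock network were counted from a list of 20, all tested. After LPS 5 were higher and 1 was lower, beside 11.1% and 8.86% of all genes. Under CPD-4645 against LPS-vehicle mice 2 were higher and 1 lower, beside 14.1% and 16.4% of all genes. That count of 2 was 5 with DESeq2 or without LPS-CPD-4645 mouse 3, and 4 without LPS-CPD-4645 mouse 1. All genes higher in those fits numbered 2774 of 17285, 2249 of 17599 and 2391 of 17596. Against sham-vehicle mice 8 of the 20 were higher and 2 lower, beside 19.5% and 19.3% of all genes. Their median log2 changes were 0.11, 0.08 and 0.23. *Cry2*, the second cryptochrome, was called in all 3. It measured 86.7 to 101 CPM in sham-vehicle mice, 105 to 131 CPM in LPS-vehicle mice and 165 to 195 CPM in LPS-CPD-4645 mice, with no overlap between groups. *Cry2* rose by 0.27 (SE 0.08, adjusted p = 0.032) after LPS and by 0.66 (SE 0.08, adjusted p = 2.5e-05) with CPD-4645, so both cryptochromes were higher under CPD-4645. The call after LPS was lost without sham-vehicle mouse 1 or 4 or LPS-vehicle mouse 2 or 3 (adjusted p = 0.059 to 0.11). *Nr1d2*, which encodes REV-ERB beta, was not called, with -0.11 (SE 0.12, adjusted p = 0.52) under CPD-4645 against LPS-vehicle mice, where *Nr1d1* rose. *Rora*, which encodes a ROR activator, and the BMAL1 and CLOCK paralogs *Arntl2* and *Npas2* were not called in the 3 comparisons, and *Rorb* was lower in LPS-CPD-4645 than in sham-vehicle mice (-0.47, SE 0.16, adjusted p = 0.024), a call lost without sham-vehicle mouse 1, 3 or 4 or LPS-CPD-4645 mouse 3 or 4 (adjusted p = 0.055 to 0.092).

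The D-box factors of this list are *Hlf*, a PAR bZIP activator like *Dbp* and *Tef*, and *Nfil3*, which represses the same sites. *Hlf* rose by 0.34 (SE 0.08, adjusted p = 0.0034) and *Nfil3* by 0.50 (SE 0.15, adjusted p = 0.023) after LPS, and both were also above sham-vehicle mice with CPD-4645 (0.30, adjusted p = 0.0071, and 0.82, adjusted p = 0.00049). The *Nfil3* call after LPS was lost without sham-vehicle mouse 2, 3 or 4 or LPS-vehicle mouse 1 or 2 (adjusted p = 0.052 to 0.066). Of the 3 PAR bZIP genes, *Tef* and *Hlf* were therefore higher and *Dbp* lower after LPS. *Bhlhe40*, an E-box repressor, rose by 0.40 after LPS (SE 0.11, adjusted p = 0.015), and its paralog *Bhlhe41* was higher in LPS-CPD-4645 than in sham-vehicle mice (0.27, SE 0.10, adjusted p = 0.042). The first of these calls was lost without sham-vehicle mouse 3 (adjusted p = 0.063), and the second without sham-vehicle mouse 1, 3 or 4 or LPS-CPD-4645 mouse 2 or 4 (adjusted p = 0.057 to 0.13). *Timeless*, which acts at replication forks and is linked to the clock, had the largest change of the list. It measured 4.07 ± 1.32 CPM (SD, n = 4) in sham-vehicle, 12.2 ± 2.85 CPM (n = 5) in LPS-vehicle and 10.2 ± 1.52 CPM (n = 4) in LPS-CPD-4645 mice, a rise of 1.60 after LPS (SE 0.22, adjusted p = 3.4e-05). *Tipin*, its partner at the fork, was higher in LPS-CPD-4645 than in sham-vehicle mice (0.37, SE 0.13, adjusted p = 0.025), a call lost without sham-vehicle mouse 2 or LPS-CPD-4645 mouse 1 or 4 (adjusted p = 0.071 to 0.078).

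The list also holds kinases and ubiquitin ligases that set the life of the PER and CRY proteins. *Csnk1e*, a casein kinase that marks PER proteins, rose by 0.29 with CPD-4645 against LPS-vehicle mice (SE 0.08, adjusted p = 0.012). *Csnk1d* was higher in LPS-CPD-4645 than in sham-vehicle mice (0.33, SE 0.09, adjusted p = 0.0077). *Btrc*, a ubiquitin ligase subunit that acts on PER proteins, measured 107 ± 10.8 CPM in sham-vehicle, 94.1 ± 7.05 in LPS-vehicle and 69.7 ± 7.83 CPM in LPS-CPD-4645 mice. It fell by 0.44 with CPD-4645 against LPS-vehicle mice (SE 0.09, adjusted p = 0.0019), with no overlap between those groups. *Gsk3b* was lower after LPS (-0.30, SE 0.09, adjusted p = 0.02), and not called without sham-vehicle mouse 4 (-0.25, adjusted p = 0.076).

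**Figure D5:**
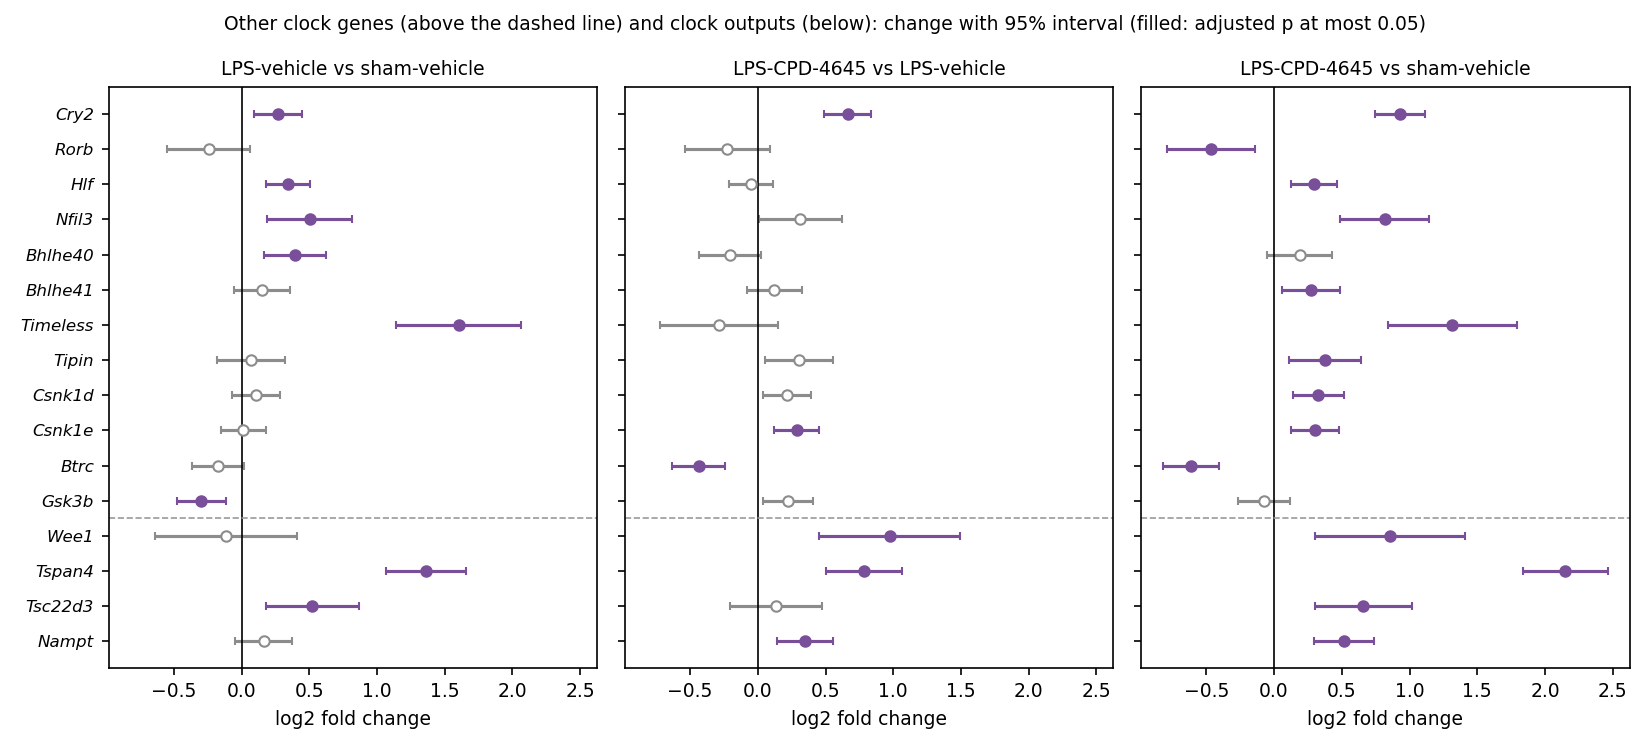
Fitted log2 fold change (horizontal axis) with 95% intervals of the other clock network genes (above the dashed line) and clock output genes (below it) that were called in at least 1 comparison, where filled symbols mark an adjusted p of at most 0.05. *Cry2* and *Tspan4* are filled in all 3 comparisons and *Btrc* lies below 0 in both comparisons of LPS-CPD-4645 mice.

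Among 5 genes known as rhythmic outputs, 2 were higher after LPS, 3 under CPD-4645 against LPS-vehicle mice and 4 against sham-vehicle mice, where 11.1%, 14.1% and 19.5% of all genes were higher. The count after LPS was 1 without sham-vehicle mouse 1, 2 or 3 or LPS-vehicle mouse 4 or 5, where *Tsc22d3* lost its call (0.52 in all mice, adjusted p = 0.031). *Tspan4*, a tetraspanin, rose by 1.36 after LPS (SE 0.14, adjusted p = 1.7e-06) and by 0.79 with CPD-4645 (SE 0.13, adjusted p = 0.00033). *Wee1*, a cell cycle kinase under E-box control, rose by 0.97 with CPD-4645 (SE 0.25, adjusted p = 0.0064) from a low level of 4.38 ± 1.69 CPM (SD, n = 5), and *Nampt*, which makes the NAD+ precursor, by 0.35 (SE 0.10, adjusted p = 0.013). *Usp2*, a deubiquitinase that is rhythmic in many tissues, was not called in the 3 comparisons.

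Glucocorticoids and signals through cyclic AMP are known to act on *Per1*. A list of glucocorticoid-responsive genes and a list of immediate early genes were counted, and no list particular to cyclic AMP. Of 6 glucocorticoid-responsive genes, 5 were higher after LPS, 5 under CPD-4645 against LPS-vehicle mice and 6 against sham-vehicle mice, where 11.1%, 14.1% and 19.5% of all genes were higher. The count after LPS includes *Zbtb16*, a transcription factor gene (0.69, adjusted p = 0.048), whose call was lost in 11 of the 13 fits that left out 1 mouse (adjusted p = 0.055 to 0.12), all but those without LPS-vehicle mouse 1 or 3. The summed level of the 6 genes was 195 to 249 CPM in sham-vehicle, 529 to 727 CPM in LPS-vehicle and 857 to 998 CPM in LPS-CPD-4645 mice, without overlap. *Sgk1* was the largest part of that sum, at 91, 373 and 524 CPM on average in the same order. *Zbtb16* and *Klf9* overlapped between sham-vehicle and LPS-vehicle mice, and *Dusp1* and *Errfi1* between LPS-vehicle and LPS-CPD-4645 mice. *Fkbp5*, a chaperone of the glucocorticoid receptor, rose by 2.17 after LPS (SE 0.11, adjusted p = 2e-09) and by 0.31 with CPD-4645 (SE 0.10, adjusted p = 0.031). The latter call was lost without LPS-vehicle mouse 1, 3 or 4 or LPS-CPD-4645 mouse 2 or 4 (adjusted p = 0.051 to 0.081). *Klf9*, a transcription factor, measured -0.01 after LPS (SE 0.21, adjusted p = 0.98) and rose by 1.07 with CPD-4645 (SE 0.21, adjusted p = 0.00096). Of 6 immediate early genes, 1 was higher (*Junb*) and 1 lower (*Egr1*) after LPS, and *Fos* and *Crem* were lower under CPD-4645 against LPS-vehicle mice, *Crem* by 0.60 (SE 0.13, adjusted p = 0.002). Over all genes 11.1% were higher and 8.86% lower after LPS, and 16.4% were lower under CPD-4645 against LPS-vehicle mice. The *Fos* call (adjusted p = 0.046) was lost in 8 of the 13 fits that left out 1 mouse, all but those without sham-vehicle mouse 1, 2 or 4 or LPS-vehicle mouse 4 or 5. *Egr1* measured 205 to 375 CPM in sham-vehicle, 97.3 to 153 CPM in LPS-vehicle and 78.2 to 107 CPM in LPS-CPD-4645 mice. The part of these signals in the clock gene values was not tested.

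Markers of other cells moved with the groups as well. Their counts are read beside all genes, of which 11.1% were higher and 8.86% lower after LPS, and 14.1% higher and 16.4% lower under CPD-4645 against LPS-vehicle mice. The 7 endothelial markers summed to 357 to 689 CPM in LPS-vehicle and 373 to 477 CPM in LPS-CPD-4645 mice, with 5 of 7 higher and 1 lower after LPS and 4 of 7 lower under CPD-4645. Neutrophil markers summed to 1.23 to 5.53 CPM in sham-vehicle, 64.8 to 274 CPM in LPS-vehicle and 7.04 to 27 CPM in LPS-CPD-4645 mice, for the 7 genes listed. No count of called neutrophil markers is given, because some passed the filter on low counts through the LPS-vehicle mice. The medians of the endothelial and neutrophil sums were highest in LPS-vehicle mice. Neuronal markers summed to 6870 to 7700 CPM in LPS-vehicle and 7300 to 9590 CPM in LPS-CPD-4645 mice, and 2 of 6 were lower after LPS and 2 of 6 higher under CPD-4645. What part cell composition had in the clock gene values was not tested.

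The genes whose values over the 13 mice were most like those of *Per1*, the clock gene with the smallest p after LPS, were *Camkk1*, *Zfp956* and *Arrdc4*. The mean absolute difference of their standardized log2 CPM from that of *Per1* was 0.135, 0.139 and 0.140 SD, over 14835 genes compared, and 0.251 SD for *Ciart*, the nearest clock gene. *Camkk1* measured 99.5, 126 and 195 CPM on average in sham-vehicle, LPS-vehicle and LPS-CPD-4645 mice. For *Cry1* the nearest were *Bzw2* (0.207 SD), *Med26* (0.214 SD) and *H3f3b* (0.215 SD).

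Several clock genes share their position with other genes, and the strand setting of the counting is not given in the sources used here. *Nr1d1* shares exons on the opposite strand with *Thra*, a thyroid hormone receptor, at 670, 642 and 708 CPM on average in sham-vehicle, LPS-vehicle and LPS-CPD-4645 mice and not called. *Dbp* shares exons on the opposite strand with *Sphk2*, a sphingosine kinase, which was lower under CPD-4645 against LPS-vehicle mice (-0.36, adjusted p = 0.014) at 28.3, 31.4 and 24.4 CPM. *Per3* overlaps the span of *Camta1* on the same strand without shared exons (302, 365 and 331 CPM, not called), and *Tef* shares exons with the antisense gene *Gm17597* at 1.21 to 2.30 CPM. *Ciart* overlaps the antisense gene *C920021L13Rik* without shared exons, at 0.686, 1.47 and 2.1 CPM. That gene was higher in LPS-CPD-4645 than in sham-vehicle mice (1.59, edgeR adjusted p = 0.0081). *Arntl* shares exons with the antisense gene *Gm45355*, for which no value was used here. Values of *Nr1d1*, *Dbp*, *Tef* and *Arntl* are uncertain to the extent that such reads were shared.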

How the data were processed

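Whole-number counts per gene and library were deposited by the authors, without normalization. Per the labels and the study's methods, stranded poly(A) libraries were aligned with STAR 2.5.2a to mm10 (GRCm38) after bcl2fastq 2.15.0.4 and counted on GENCODE M9 basic. Groups and replicate numbers came from the sample titles. Symbols were taken from GENCODE M21 of the same build, and 47224 of the 47643 identifiers matched.

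The analysis used R 4.3.3 and edgeR 4.0.16: filterByExpr (minimum count 10, minimum total 15) kept 17285 of 27934 genes with any count, TMM factors ran from 0.908 to 1.08, and 1 quasi-likelihood fit of the 3 groups without covariates held all 13 mice (common dispersion 0.0334). Intervals used the fit's degrees of freedom, and log2 CPM a prior count of 2. The study's threshold adds a 2-fold change, which was an alternative here because smaller changes of few genes were of interest. Total counts had a median of 26989885 and a 7.06-fold range, the shallowest libraries being LPS-CPD-4645 mouse 1 and LPS-vehicle mouse 3. The steps were tested on simulated data.

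The clock genes and the other lists were chosen with earlier results of these data known. All 10 clock genes are named, with examples from the called genes of the lists, genes overlapping a clock gene, and the 3 genes of at least 1 CPM nearest to each of 2 clock genes. *Nr1d2*, *Rora*, *Arntl2*, *Npas2* and *Usp2*, which were not called, were named after their values were seen. The remaining genes of the lists, some of which are not reported here by name, enter the counts and sums. Other marker lists (mural, astrocyte, microglia, monocyte, lymphocyte, erythrocyte, choroid plexus, fibroblast) are given in the closing observations.

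Alternatives were limma 3.58.1 (voom, the study's test), DESeq2 1.42.0, DESeq2 size factors in edgeR, no filter, a mean count of at least 50, the compared groups alone, the 2-fold threshold, a replicate block, leaving out each mouse, and leaving out the 2 shallowest libraries. Motifs and plots were made in Python 3.11.15 (numpy 2.4.6, pandas 2.3.3, matplotlib 3.10.9).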

Additional observations from a re-analysis of the deposited data

Results flagged for a closer look

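In 141 groups of 4 or 5 mice, the highest or lowest mouse was set against the nearest of the others, and 8 groups held a mouse far from the rest. Chance alone marks about 1 in 20 such groups. None of the 30 groups of the 10 clock genes was among them. LPS-CPD-4645 mouse 3 was low for the nuclear receptor genes *Nr1d2* (80.8 CPM, nearest 123 CPM) and *Rora* (57.9 CPM, nearest 80.0 CPM). LPS-vehicle mouse 3, the library of lowest depth in its group, was high for *Npas2* (42.2 CPM, nearest 35.6 CPM) and *Egr1* (153 CPM, nearest 108 CPM). *Btrc* was high in LPS-vehicle mouse 2 (107 CPM, nearest 92.1 CPM) and *Fbxw11* low in LPS-vehicle mouse 1 (121 CPM, nearest 132 CPM). Among sham-vehicle mice, *Tsc22d3* was high in mouse 4 (185 CPM, nearest 120 CPM) and *Zbtb16* in mouse 1 (4.65 CPM, nearest 4.02 CPM).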

How the results depend on the processing

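Of the clock genes, *Per1*, *Cry1*, *Ciart*, *Arntl* and *Tef* kept every call and direction of their called changes under all alternatives run, apart from the 2-fold threshold. With at least 2-fold required, clock genes higher and lower numbered 0 and 0 after LPS, 3 and 0 under CPD-4645 against LPS-vehicle mice, and 3 and 0 against sham-vehicle mice, and the other clock genes 1 and 0, 0 and 0, and 1 and 0. Clock genes lower under CPD-4645 against LPS-vehicle mice numbered 2 with DESeq2, with a mean count of at least 50, with no filter and with the compared groups alone, since *Dbp* crossed the threshold there. All genes lower in those settings numbered 3012 of 17285, 2735 of 13860, 2642 of 27934 and 2462 of 16859. Without the 2 shallowest libraries, 1 clock gene was lower after LPS, 3 other clock genes were higher after LPS and 4 under CPD-4645 against LPS-vehicle mice, where DESeq2 gave 5. Of all 17445 genes without those libraries, 1782 were higher and 1344 lower after LPS. Under CPD-4645 against LPS-vehicle mice 2305 of them were higher, and by DESeq2 2774 of 17285. Leaving out each mouse gave 0 to 2 clock genes lower after LPS, 1 to 2 lower under CPD-4645 against LPS-vehicle mice and 5 to 7 higher against sham-vehicle mice. For the other clock genes it gave 3 to 5 higher and 0 to 1 lower after LPS, 2 to 5 higher under CPD-4645 against LPS-vehicle mice, and 6 to 10 higher and 1 to 2 lower against sham-vehicle mice. The same fits held 17127 to 17667 genes in all and called 1498 to 1964 higher and 1046 to 1589 lower after LPS. Under CPD-4645 against LPS-vehicle mice they called 1821 to 2641 higher and 2200 to 2818 lower. Against sham-vehicle mice they called 2844 to 3466 higher and 2754 to 3470 lower. Values that changed sign had not been called: *Cry1* after LPS was -0.019 with limma-voom and -0.036 without the 2 shallowest libraries (-0.06 to 0.12 leaving out each mouse), *Per2* under CPD-4645 against LPS-vehicle mice was -0.016 without those libraries (-0.061 to 0.061 leaving out each mouse), *Per2* after LPS ran from -0.002 to 0.12, and *Clock* in LPS-CPD-4645 against sham-vehicle mice from -0.06 to 0.04. *Per3* in LPS-CPD-4645 against sham-vehicle mice was also not called by limma-voom (adjusted p = 0.052), without a filter (0.052) or without the 2 shallowest libraries (0.10), and *Nr1d1* after LPS not without those libraries (adjusted p = 0.053). The causes were not tested. Replicate numbers did not pair the mice, since deviations of same-numbered mice correlated at -0.035 to 0.114 (12 pairs) and of others at -0.137 to 0.124 (44 pairs), and a replicate block changed 1 clock gene call, that of *Per3* against sham-vehicle mice (0.28, edgeR adjusted p = 0.077). The lowest count of a clock gene in a library was 107 (*Ciart*), and replicate mice differed by more than counting error on average over genes.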

Other observations

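The other marker lists of the vessel preparation are given as summed CPM. Mural cell markers measured 171 to 260 CPM in sham-vehicle, 137 to 206 CPM in LPS-vehicle and 160 to 219 CPM in LPS-CPD-4645 mice, and astrocyte markers 1270 to 1610, 1630 to 2150 and 1520 to 2050 CPM. Microglia markers measured 193 to 270, 148 to 276 and 138 to 184 CPM in the same order, and oligodendrocyte markers 4360 to 6280, 2890 to 3920 and 3580 to 4670 CPM. Choroid plexus markers measured 340 to 711, 170 to 376 and 242 to 783 CPM, and fibroblast markers 106 to 117, 110 to 135 and 97.0 to 145 CPM. Of the blood lists, monocyte markers measured 6.22 to 12.1, 16.8 to 74.1 and 8.56 to 13.8 CPM, erythrocyte markers 440 to 896, 226 to 436 and 310 to 660 CPM, and lymphocyte markers at most 0.742 CPM in every mouse. The part of cell composition in the clock gene values was not tested.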
